A study of Mus musculus with 9 samples.

Results

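The genes described here are the receptors, enzymes and kinase subunits of cyclic AMP (cAMP) signalling: the beta-adrenergic receptors, the stimulatory G protein subunit, the adenylyl cyclases, the phosphodiesterases and the subunits of protein kinase A (PKA). Rows of the count table were chosen by gene symbol: Gnas, all symbols made of Adrb or Adcy and a number, all symbols made of Pde and a number with or without a letter from a to d, and the Prkac, Prkar1 and Prkar2 subunit genes. This gave 43 of the 55359 genes in the table, of which 35 passed the filter on low counts and were tested. A gene that is high on a single day can pass that filter through that day alone, so counts among the 35 describe the tested genes and support nothing about all 43.

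The cells were mouse adipocyte precursors isolated from inguinal white adipose tissue and turned into beige adipocytes, the thermogenic fat cells that arise in white fat. Bulk RNA-seq was made of 3 libraries each of non-induced cells with no treatment (day 0) and of cells after 4 and 8 days of beige differentiation. The induction medium held dexamethasone (a glucocorticoid), 3-isobutyl-1-methylxanthine (IBMX, an inhibitor of most phosphodiesterases) at 0.5 mmol/L, indomethacin, insulin, triiodothyronine and the PPAR gamma agonist rosiglitazone. After 2 days the cells were moved to a maintenance medium without IBMX, indomethacin and dexamethasone, so the day 4 and day 8 cells were both lysed after IBMX had been withdrawn. The RNA came from the supernatant of a cleared detergent lysate that held cycloheximide. The labels do not name the strain, sex or age of the mice, nor say whether the replicates are separate cultures or animals. All p-values therefore rest on the differences among these 9 libraries, which may be technical.

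In adipocytes, noradrenaline binds beta-adrenergic receptors, which act through the stimulatory G protein on adenylyl cyclase to make cAMP. cAMP binds the regulatory subunits of PKA and frees the catalytic subunits, which phosphorylate lipolysis proteins and the transcription factor CREB, and in beige and brown fat raise heat production through Ucp1. Phosphodiesterases break cAMP and cyclic GMP (cGMP) down and end the signal.

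Total counts ranged from 26387408 to 31474490 per library, and levels are given as CPM, counts scaled to library size with TMM factors, in the order of replicates 1, 2 and 3. The summed CPM of 10 adipocyte markers was 73.1 to 95.5 at day 0, 20961 to 39102 at day 4 and 28168 to 30787 at day 8, and that of 8 beige or brown adipocyte markers was 1.60 to 1.73, 374 to 1009 and 1603 to 2661. The day 4 replicate 2 library stood apart, with an adipocyte marker sum of 20961 CPM against 39102 and 34820 in replicates 1 and 3, and a sum of 9 precursor markers of 2139 CPM against 843 and 961, close to the 2247 to 2426 of day 0. In bulk RNA, fewer cells of a type and less RNA per cell cannot be told apart. Precursor markers summed to 671 to 903 CPM at day 8. A sum mainly follows its most abundant genes. Of the 8 precursor markers tested, 3 were called higher and 4 lower at day 4 against day 0, by the test described next. Their log2 fold changes ran from -2.48 to 1.70. At day 8, 0 were called higher and 5 lower. Over all genes tested 28.6% were called higher and 26.0% lower at day 4, and 33.5% and 29.9% at day 8. Sums of markers of other cells were lower than the precursor sums on each day. At days 0, 4 and 8, those of macrophages (8 genes) were 41.0 to 93.8, 57.6 to 78.1 and 8.81 to 49.7 CPM, those of endothelium (7) 11.8 to 15.9, 2.80 to 10.6 and 1.92 to 3.05, and those of mural cells (6) 26.7 to 35.7, 26.3 to 35.6 and 38.3 to 45.0. Schwann cell markers (5) summed to 7.06 to 25.3 CPM over the 9 libraries, mesothelium (4) to 15.9 to 50.5 and skeletal muscle (5) to 1.58 to 36.0, with Myh4, Ckm and Myod1 at 0 in every library. Lymphocyte markers (7) summed to at most 0.297 CPM and mammary epithelium (6) to at most 0.621. The part of these cells in the results below was not tested.

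At day 4, 24 of the 35 tested genes differed from day 0 in edgeR's quasi-likelihood test (Benjamini-Hochberg adjusted p under 0.05 over all 14649 genes tested), 11 higher and 13 lower. Over all genes tested 54.6% were called, 28.6% higher and 26.0% lower. At day 8, 28 of the 35 differed from day 0, 14 higher and 14 lower, where 63.4% of all genes were called, 33.5% higher and 29.9% lower. Between day 4 and day 8, 9 of the 35 changed, 6 higher and 3 lower at day 8, where 22.4% of all genes were called, 11.7% higher and 10.8% lower. Changes of at least 2-fold were called for 19, 21 and 6 of the 35, beside 34.6%, 42.2% and 11.1% of all genes. The median log2 fold changes of the tested genes were -0.08, -0.07 and 0.01 in these comparisons, beside -0.01, 0.03 and 0.00 over all genes. The tested genes called were 68.6%, 80.0% and 25.7%, above the background against day 0 and near it between days 4 and 8, with similar numbers in each direction against day 0. Adrb1 and Adrb3 were higher at day 8, while members of the cyclases, the phosphodiesterases and both kinds of PKA subunit moved in opposite directions, as described next by role. Both comparisons with day 0 use the same 3 control libraries. Without day 4 replicate 2, 26, 31 and 11 of 36 tested genes were called, and 9110, 10111 and 3391 of the 15150 genes tested then, so more calls were made over all genes too. The count between days 4 and 8 was 5 when any one of day 4 replicate 3 and day 8 replicates 1 and 2 was left out.

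**Figure D1:**
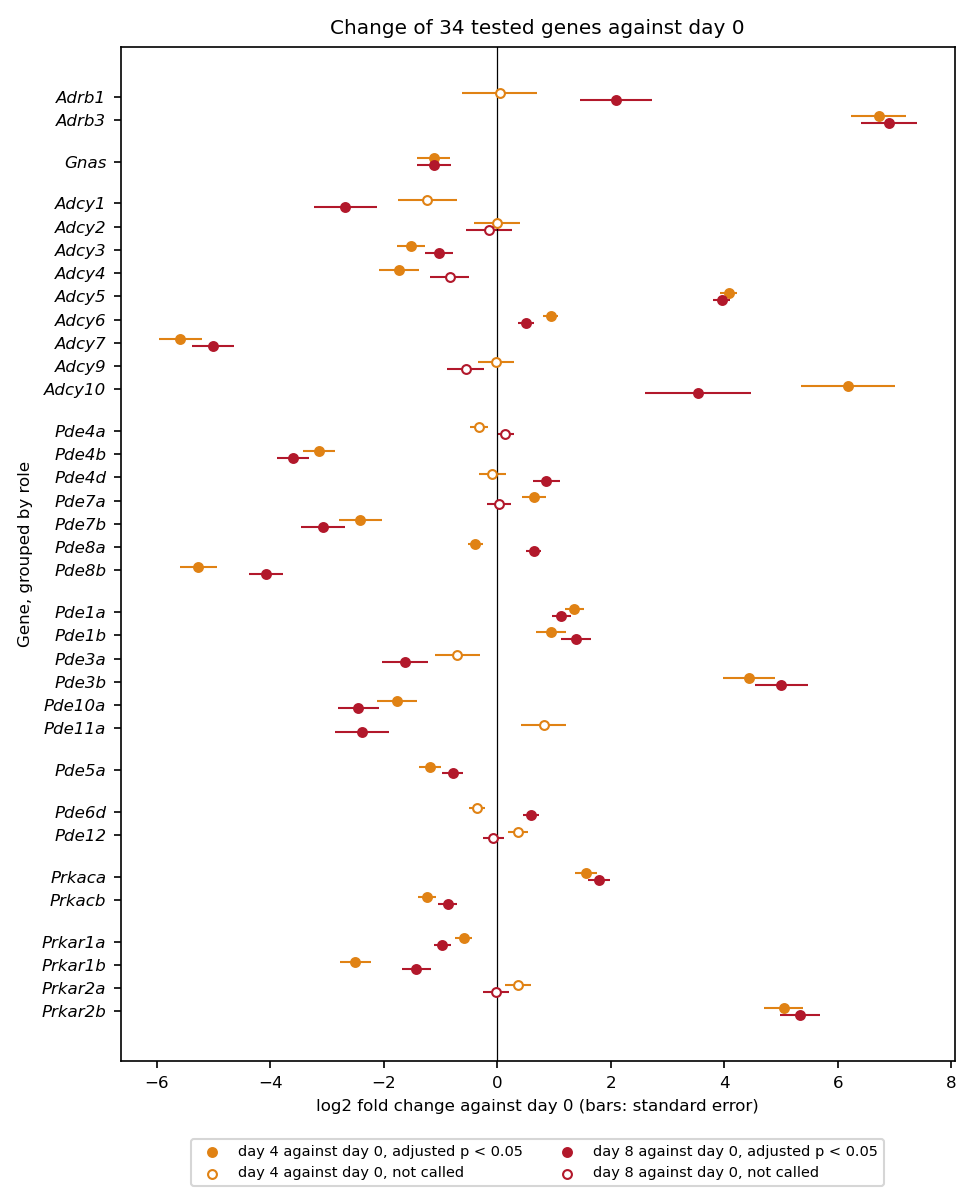
log2 fold changes (points, x axis) with standard errors (bars) at day 4 (orange) and day 8 (red) against day 0 for 34 tested genes, grouped by role on the y axis; filled points have an adjusted p under 0.05. Adrb3, Adcy5, Pde3b and Prkar2b lie between 3.95 and 6.90, while Adcy7 and Pde8b lie between -5.58 and -4.08; the position of Adcy10 rests on 2 counts at day 0.

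The beta-adrenergic receptor genes Adrb1 and Adrb3 were higher at day 8 than at day 0, and Adrb3 was already higher at day 4. Adrb3 (ENSMUSG00000031489), the receptor most restricted to adipocytes in rodents, stood at 1.64, 1.75 and 0.562 CPM at day 0, 183, 71.8 and 164 CPM at day 4 and 172, 180.0 and 122 CPM at day 8. Every differentiated library was far above every day 0 library, and the day 4 value of replicate 2 was the lowest of the 6. The log2 fold change of Adrb3 was 6.72 (SE 0.48, adjusted p = 1.82e-06) at day 4 and 6.90 (SE 0.49, adjusted p = 1.76e-06) at day 8, and without day 4 replicate 2 the day 4 value was 7.03. Days 4 and 8 overlapped, with a log2 difference of 0.18 (adjusted p = 0.741). In the GENCODE annotation 24.9% of the exon length of Adrb3 lies opposite another gene, so its counts are uncertain to the extent that strand was not used in counting.

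Adrb1 (ENSMUSG00000035283), the main receptor of the heart, stood at 0.0809, 0.939 and 0.355 CPM at day 0, 0.417, 0.617 and 0.354 CPM at day 4 and 2.05, 2.11 and 1.65 CPM at day 8. Days 0 and 4 overlapped and only the day 8 libraries lay above both. Adrb1 was 2.09 higher at day 8 than at day 0 on the log2 scale (SE 0.63, adjusted p = 0.0133) and 2.05 higher than at day 4 (SE 0.64, adjusted p = 0.042). Both calls rested on low counts: without day 0 replicate 3 the first had an adjusted p of 0.0537, without day 0 replicate 2 its value was 3.13, and the second lost its call with total-count scaling (0.051) and without any single library other than day 0 replicates 1 and 2 and day 4 replicate 2 (0.0632 to 0.123).

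Levels of different genes are compared only per kilobase (kb) of merged exon length. For each of the other families, the share of the sum held by its leading gene was tested with an exact permutation test over the 1680 ways to assign the 9 libraries to the 3 days, whose smallest possible p is 0.00357, and p-values were adjusted over 5 shares.

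Gnas (ENSMUSG00000027523) encodes the alpha subunit of the stimulatory G protein that couples these receptors to adenylyl cyclase. It stood at 18.2, 28.9 and 31.4 CPM at day 0, 8.97, 18 and 9.02 CPM at day 4 and 10.3, 13.7 and 12.3 CPM at day 8. The later libraries all lay below day 0, though day 4 replicate 2 came close to the lowest day 0 library. Gnas fell by 1.12 (SE 0.30, adjusted p = 0.00849) at day 4 and by 1.11 (SE 0.30, adjusted p = 0.00705) at day 8 on the log2 scale. Gnas is part of an imprinted locus with several nested transcripts, and 22.0% of its exon length lies opposite Gm20721 or Gnasas1 in the GENCODE annotation. Its count is therefore uncertain, and the printed level may hold only part of its RNA.

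**Figure D2:**
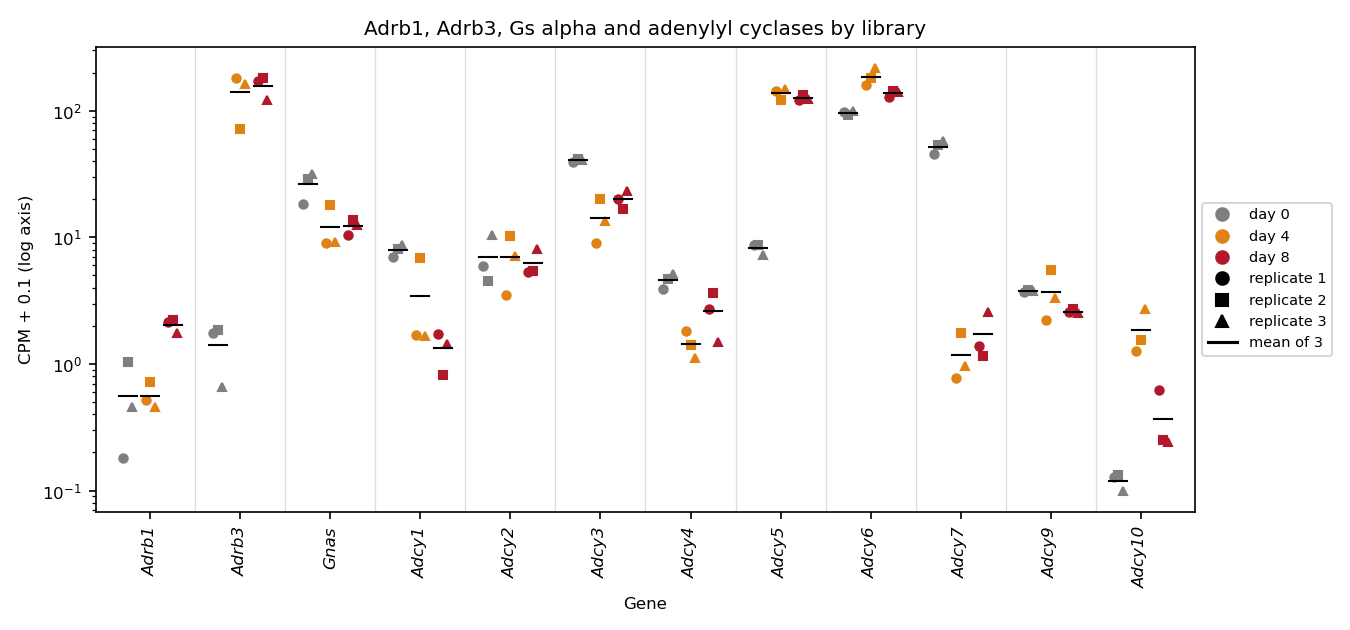
CPM + 0.1 on a log axis for Adrb1, Adrb3, Gnas and the 9 tested adenylyl cyclases, in each library (symbols: replicates; colours: days; bars: means of 3). Adrb3 and Adcy5 are higher at days 4 and 8 with no overlap with day 0, Adcy7 and Adcy3 are lower, and day 4 replicate 2 (orange square) is the lowest day 4 library for Adrb3.

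Among the adenylyl cyclases, which make cAMP from ATP, Adcy5 rose, Adcy7 fell to at most 2.49 CPM, and Adcy6 remained the leading gene. Adcy5 (ENSMUSG00000022840), a cyclase inhibited by calcium and by inhibitory G proteins, stood at 8.63, 8.58 and 7.13 CPM at day 0, 143, 121 and 149 CPM at day 4 and 120.5, 134 and 124 CPM at day 8. The 6 differentiated libraries lay in a narrow range, day 4 replicate 2 included. The log2 fold change of Adcy5 was 4.08 (SE 0.15, adjusted p = 4.15e-08) at day 4 and 3.95 (SE 0.15, adjusted p = 4.87e-08) at day 8. Adcy6 (ENSMUSG00000022994), the closest relative of Adcy5 and regulated alike, stood at 98.2, 92.8 and 98.8 CPM at day 0, 159, 180.2 and 217 CPM at day 4 and 129, 143 and 140.4 CPM at day 8. The 3 days did not overlap, with day 4 highest. Adcy6 rose by 0.94 on the log2 scale at day 4 (SE 0.14, adjusted p = 0.000229) and was 0.51 above day 0 at day 8 (SE 0.14, adjusted p = 0.00761), a call lost with total-count scaling (0.14, adjusted p = 0.400). The fall between days 4 and 8 (-0.43, adjusted p = 0.0436) lost its call with no filter on low counts (0.0788) and without any single library other than day 4 replicates 1 and 2 (0.0657 to 0.164).

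Adcy7 (ENSMUSG00000031659), which responds to G protein beta-gamma subunits, stood at 45.2, 53.3 and 57.3 CPM at day 0, 0.668, 1.67 and 0.866 CPM at day 4 and 1.28, 1.05 and 2.49 CPM at day 8. No later library came within reach of day 0. It fell by 5.58 (SE 0.38, adjusted p = 1.24e-06) at day 4 and by 5.01 (SE 0.36, adjusted p = 2.04e-06) at day 8 on the log2 scale. Adcy3 (ENSMUSG00000020654), the cyclase of olfactory neurons that fat also expresses, stood at 39.5, 41.4 and 40.9 CPM at day 0, 8.93, 20.1 and 13.4 CPM at day 4 and 19.9, 16.7 and 23.2 CPM at day 8. All later libraries were lower than day 0, and day 4 replicate 2 was the highest of its day. Adcy3 fell by 1.52 (SE 0.25, adjusted p = 0.000531) at day 4 and by 1.03 (SE 0.25, adjusted p = 0.00409) at day 8. Its partial return between days 4 and 8 (0.49, adjusted p = 0.173) passed the test without day 4 replicate 2 (0.79, adjusted p = 0.0158). In the annotation 22.1% of the exon length of Adcy3 lies opposite Cenpo.

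The membrane cyclase genes with the largest rise and the largest fall are shown with the bases before a RefSeq start site, since both encode cyclases and a site for CREB near a start is the classical route by which cAMP acts on a gene. Capitals mark TGACG, the core of the cAMP response element, or its reverse complement CGTCA, the only motif searched besides the full palindrome TGACGTCA, which contains both. The sequences are from RefSeq on GRCm38.p6, another build than that of the counts, at chr16:35154614-35154863 (plus strand) for Adcy5 and chr8:88282742-88282991 (plus strand) for Adcy7, each ending at the base before the start site.
Adcy5: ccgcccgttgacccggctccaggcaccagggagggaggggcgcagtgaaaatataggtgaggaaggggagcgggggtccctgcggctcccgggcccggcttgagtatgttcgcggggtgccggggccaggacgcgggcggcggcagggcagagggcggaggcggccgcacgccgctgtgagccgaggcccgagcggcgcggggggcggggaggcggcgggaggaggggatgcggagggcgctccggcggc
Adcy7: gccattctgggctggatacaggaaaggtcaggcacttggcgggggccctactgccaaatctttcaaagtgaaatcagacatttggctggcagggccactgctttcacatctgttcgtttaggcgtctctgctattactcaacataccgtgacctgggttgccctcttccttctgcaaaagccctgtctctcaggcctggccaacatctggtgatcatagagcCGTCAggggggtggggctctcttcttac
Adcy5 had no TGACG on either strand in this window and Adcy7 had 1. Where a gene had several start sites, the printed window was the one with most matches among those without annotated exon bases. The share over all windows that follows was taken without such a choice. Among all 32851 windows of 250 bases before a RefSeq start in the table, 17.8% held TGACG on either strand. A match is a string of letters and not evidence of binding, and its absence says nothing about the factor.

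Adcy1 (ENSMUSG00000020431), a calmodulin-stimulated cyclase, stood at 6.95, 8.03 and 8.67 CPM at day 0, 1.59, 6.82 and 1.58 CPM at day 4 and 1.63, 0.716 and 1.33 CPM at day 8. At day 4, replicate 2 was next to the day 0 range and the other libraries far below it. Adcy1 fell by 2.68 on the log2 scale at day 8 (SE 0.56, adjusted p = 0.00171). Its day 4 value of -1.24 did not pass the test (adjusted p = 0.0654), but without day 4 replicate 2, whose precursor marker sum was 2139 CPM, it was -2.32 (adjusted p = 0.000109). It also passed with total-count scaling, with no filter and in DESeq2. Adcy4 (ENSMUSG00000022220), of the same group as Adcy7, stood at 3.83, 4.60 and 5.00 CPM at day 0, 1.71, 1.31 and 1.02 CPM at day 4 and 2.60, 3.5 and 1.40 CPM at day 8. No later library reached the day 0 range. Adcy4 fell by 1.73 at day 4 (SE 0.36, adjusted p = 0.00219), while its day 8 value of -0.84 lay at the threshold (adjusted p = 0.0529), and it passed in DESeq2 (0.0315), with DESeq2's size factors in edgeR (0.0476), with total-count scaling (-1.22, adjusted p = 0.00757) and when day 4 replicate 1 (0.0498), day 4 replicate 2 (0.0324) or day 8 replicate 2 (0.022) was left out.

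Adcy10, the soluble cyclase that bicarbonate activates, was the rarest tested cyclase at days 0 and 8, but not at day 4. It had 2 counts in the 3 day 0 libraries together, 134 at day 4 and 23 at day 8, or 0.0270, 0.0324 and 0 CPM, then 1.17, 1.45 and 2.60 CPM, then 0.520, 0.151 and 0.140 CPM. The rate at day 4 was 88.7 times that at day 0 with a 95% interval of 24.1 to 740, and at day 8 it was 13.9 times (3.45 to 122), intervals that cover counting error only. All later libraries lay above day 0, and edgeR called both differences (adjusted p = 0.000127 and 0.0069). Without day 8 replicate 1 the fitted day 8 log2 value against day 0 went from 3.53 to 2.65 (adjusted p = 0.0341). The decline from day 4 to day 8 (-2.66, adjusted p = 0.0126) moved to -3.54 without day 8 replicate 1 and lost its call without day 4 replicate 3 (0.0537) or day 8 replicate 2 (0.0518). Adcy2 and Adcy9 passed no comparison: Adcy2 ranged from 3.42 to 10.4 CPM and Adcy9 from 2.13 to 5.44 CPM over the 9 libraries, each with its highest day 4 value in replicate 2. Without that library Adcy9 was lower at day 8 than at day 0 (-0.61, adjusted p = 0.0432, against -0.56 and 0.151 with it), as it was with total-count scaling (0.0374). Adcy8 had at most 4 counts in a library and was not tested.

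Summed over the 9 membrane cyclases, the level was 33.5 ± 1.78 CPM per kb at day 0, 51.7 ± 5.57 at day 4 and 43.8 ± 1.95 at day 8 (SD, n = 3). Adcy6 held the largest mean share: 45.0%, 41.7% and 41.0% in the day 0 libraries, 50.4%, 52.0% and 55.5% at day 4 and 45.7%, 46.7% and 46.2% at day 8. The 3 days did not overlap (exact permutation p = 0.00357, the smallest possible; adjusted p = 0.0179). Large shares also moved between other genes: Adcy5 held 3.39% ± 0.517 at day 0, 37.2% ± 5.01 at day 4 and 40.0% ± 1.46 at day 8 (SD, n = 3). Adcy7 went from 23.0% ± 1.83 to 0.307% ± 0.154 and 0.544% ± 0.250, and Adcy3 from 19.4% ± 0.913 to 4.36% ± 1.71 and 7.30% ± 1.21. The calcium- and Gi-inhibited pair of Adcy5 and Adcy6 thus led at days 4 and 8, with Adcy7 and Adcy3 beside Adcy6 at day 0. These shares of single genes are a description with no test of their own.

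**Figure D3:**
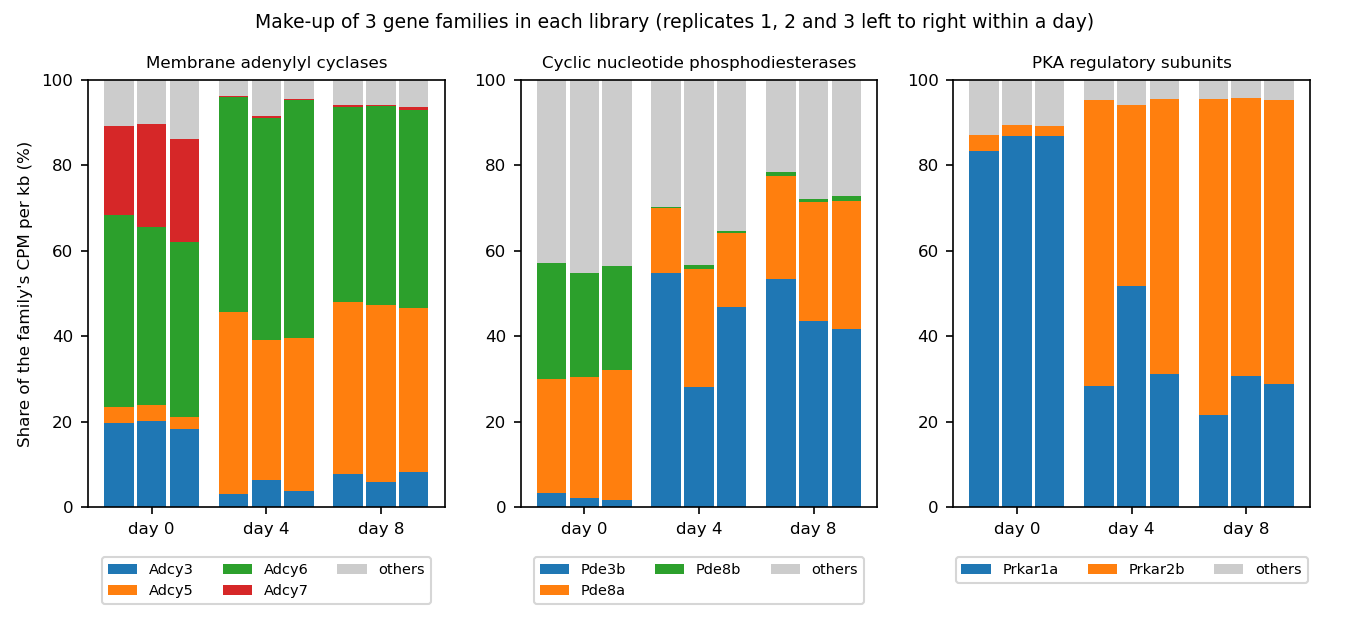
Share (%) of the summed CPM per kb of the cyclases, the phosphodiesterases and the regulatory PKA subunits held by each member in each library, with replicates 1, 2 and 3 from left to right within a day. Adcy5, Pde3b and Prkar2b take up large shares at days 4 and 8, Adcy7 and Pde8b shrink to under 2%, and day 4 replicate 2 keeps more Prkar1a (51.7%) and less Pde3b (28.1%) than its group.

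Among the phosphodiesterases the largest increase was that of Pde3b (ENSMUSG00000030671), the insulin-activated enzyme that cGMP inhibits and that restrains lipolysis in adipocytes. Pde3b stood at 10.8, 6.12 and 5.62 CPM at day 0, 238, 74.5 and 178 CPM at day 4 and 334, 188 and 206 CPM at day 8. Day 0 was far below all later libraries, and day 4 replicate 2 was the lowest of those 6. The log2 fold change was 4.44 (SE 0.46, adjusted p = 2.13e-05) at day 4, or 4.79 without replicate 2, and 5.01 (SE 0.47, adjusted p = 9.22e-06) at day 8. Its close relative Pde3a, the form of heart and platelets, stood at 14.5, 11 and 14.3 CPM at day 0, 4.30, 12.7 and 7.44 CPM at day 4 and 6.35, 2.49 and 4.03 CPM at day 8. Day 4 replicate 2 lay within the day 0 range, whereas day 8 lay below it. Pde3a fell by 1.63 on the log2 scale at day 8 (SE 0.40, adjusted p = 0.00483). Its day 4 value was -0.70 (adjusted p = 0.152), and -1.17 (adjusted p = 0.0148) without day 4 replicate 2.

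The PDE8 genes encode high-affinity cAMP-specific enzymes that IBMX does not inhibit, and the 2 paralogs parted. Pde8b (ENSMUSG00000021684) stood at 56.8, 46.4 and 49.6 CPM at day 0, 0.793, 1.49 and 1.65 CPM at day 4 and 3.37, 1.81 and 3.86 CPM at day 8. The days did not overlap, and day 4 was lowest. Pde8b fell by 5.27 (SE 0.33, adjusted p = 7.21e-07) at day 4 and by 4.08 (SE 0.30, adjusted p = 2.26e-06) at day 8. It was 1.19 higher at day 8 than at day 4 (adjusted p = 0.0232), a call lost without day 8 replicate 1 (0.0709) or replicate 3 (0.0708). Pde8a (ENSMUSG00000025584) stood at 38.3, 37.6 and 42.6 CPM at day 0, 29.2, 32.5 and 28.9 CPM at day 4 and 66.7, 52.8 and 65.9 CPM at day 8. Its 3 days did not overlap either, with day 8 highest. Pde8a was 1.03 higher at day 8 than at day 4 on the log2 scale (SE 0.13, adjusted p = 0.00101). It was 0.65 above day 0 at day 8 (adjusted p = 0.00152, and 0.124 with total-count scaling), and 0.39 below it at day 4 (adjusted p = 0.0299), a call lost with no filter (0.0752) and without any day 0 or day 4 library other than day 4 replicate 2 (0.0544 to 0.112).

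The PDE4 family, the cAMP-specific enzymes that rolipram inhibits, also split. Pde4b (ENSMUSG00000028525) stood at 19.5, 22.3 and 24.7 CPM at day 0, 2.38, 2.32 and 2.84 CPM at day 4 and 1.73, 1.13 and 2.59 CPM at day 8. All later libraries lay far below day 0. It fell by 3.14 (SE 0.28, adjusted p = 7.11e-06) at day 4 and by 3.60 (SE 0.28, adjusted p = 3.22e-06) at day 8. Pde4d was 0.86 higher at day 8 than at day 0 on the log2 scale (adjusted p = 0.0085, and 0.0848 with total-count scaling) and 0.95 higher than at day 4 (adjusted p = 0.019, and 0.0699 or 0.0596 without day 8 replicate 1 or 2). Pde4a ranged from 14 to 25.3 CPM over the 9 libraries and passed no comparison in this fit. Total-count scaling gave it -0.65 at day 4 (adjusted p = 0.00262), and without day 4 replicate 1 it differed between days 4 and 8 (0.0357). Pde4c had at most 2 counts in a library and was not tested.

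Of the PDE7 genes, cAMP-specific enzymes of low sensitivity to rolipram, Pde7b stood at 13.5, 7.22 and 12 CPM at day 0, 1.38, 2.76 and 2.01 CPM at day 4 and 1.94, 0.941 and 1.02 CPM at day 8. There was no overlap with day 0. Pde7b fell by 2.41 (SE 0.37, adjusted p = 0.00034) at day 4 and by 3.06 (SE 0.39, adjusted p = 6.54e-05) at day 8. Pde7a ranged from 12.1 to 28.8 CPM over the 9 libraries and was 0.64 higher at day 4 than at day 0 on the log2 scale (adjusted p = 0.0248), a call lost with total-count scaling (0.249) and without any day 0 or day 4 library other than day 4 replicate 2 (0.0616 to 0.0992). At day 8 it was 0.03 from day 0 (adjusted p = 0.926). Its value at day 8 against day 4, -0.61 (adjusted p = 0.0595), passed with no filter (0.0477), in DESeq2 (0.0401) and without day 4 replicate 2 (0.0127) or day 8 replicate 3 (0.03).

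The calmodulin-stimulated PDE1 enzymes, which hydrolyse both cAMP and cGMP, rose together. Pde1a stood at 7.17, 5.02 and 6.15 CPM at day 0, 15.1, 16.1 and 15.9 CPM at day 4 and 13.3, 12.7 and 14.2 CPM at day 8. Pde1b stood at 5.93, 10.6 and 5.47 CPM at day 0, 16.3, 11.3 and 14.6 CPM at day 4 and 18, 16.7 and 22.5 CPM at day 8. In both genes all later libraries lay above day 0, for Pde1b by a small margin at day 4. The log2 fold change of Pde1a was 1.36 (SE 0.17, adjusted p = 7.87e-05) at day 4 and 1.13 (SE 0.17, adjusted p = 0.000203) at day 8. Pde1b was 0.95 higher at day 4 (SE 0.26, adjusted p = 0.0109), a call lost with total-count scaling (0.0672) and without day 0 replicate 1 (0.0533) or 3 (0.0523), and 1.38 higher at day 8 (SE 0.26, adjusted p = 0.000964). Pde1c had at most 5 counts in a library.

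Other dual enzymes were lower at day 8. Pde10a, best known from the striatum, stood at 16.2, 11.4 and 15.7 CPM at day 0, 3.17, 6.24 and 3.23 CPM at day 4 and 3.40, 1.43 and 3.08 CPM at day 8. All later libraries were below day 0, with day 4 replicate 2 the highest of them. It fell by 1.77 (SE 0.36, adjusted p = 0.00177) at day 4 and by 2.45 (SE 0.37, adjusted p = 0.000206) at day 8. Pde11a, a dual enzyme of low abundance, stood at 0.782, 0.777 and 0.533 CPM at day 0, 1.13, 1.23 and 1.34 CPM at day 4 and 0.208, 0.0753 and 0.105 CPM at day 8. Its 3 days did not overlap and day 4 was highest, but the day 8 values rest on 6, 2 and 3 counts. Pde11a fell by 2.38 (SE 0.48, adjusted p = 0.00139) between days 0 and 8 and fell by 3.20 (SE 0.48, adjusted p = 0.00201) between days 4 and 8, while its day 4 value against day 0 was 0.82 (adjusted p = 0.102). Pde2a had 7 counts in a single day 0 library and 0 in the others, but 64.3% of its exon length overlaps Gm45837 on the same strand in the GENCODE annotation, so its counts are uncertain and a 0 need not mean that its RNA was lacking.

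Of the cGMP-specific enzymes, Pde5a, the target of sildenafil, stood at 17.3, 15.4 and 15.4 CPM at day 0, 8.39, 5.48 and 7.32 CPM at day 4 and 10.4, 8.47 and 9.01 CPM at day 8. The 3 days did not overlap, with day 4 lowest. It fell by 1.18 (SE 0.19, adjusted p = 0.00043) at day 4 and by 0.79 (SE 0.19, adjusted p = 0.00378) at day 8. Pde9a, which IBMX does not inhibit, did not pass the filter, with 15, 11 and 6 counts at day 0, 2, 7 and 2 at day 4 and 0 in each day 8 library. With day 8 set at a floor of 3 counts over the group, its rate there was 8.79-fold lower than at day 0, or 5.77-fold without day 8 replicate 1. These values take the day 0 counts without their error, and the difference was not tested. The photoreceptor genes Pde6a, Pde6b and Pde6c had at most 10, 1 and 0 counts in a library and were not tested.

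Pde6d and Pde12 match the naming rule but are not enzymes that break down cAMP or cGMP: Pde6d is a carrier of lipid-modified proteins and Pde12 a mitochondrial RNA-degrading enzyme. Pde6d ranged from 36.5 to 40.3 CPM at day 0, 27.3 to 33.8 at day 4 and 51.0 to 67.3 at day 8. It was 0.95 higher at day 8 than at day 4 on the log2 scale (adjusted p = 0.00221) and 0.59 higher than at day 0 (adjusted p = 0.00413, and 0.132 with total-count scaling). Its day 4 value against day 0, -0.36 (adjusted p = 0.0564), passed with total-count scaling (-0.69, adjusted p = 0.00102) and without day 4 replicate 1 (0.0359) or day 8 replicate 2 (0.0339). Pde12 ranged from 10.5 to 20.4 CPM over the 9 libraries and passed no comparison, save day 4 against day 0 without day 8 replicate 2 (0.36, adjusted p = 0.0421). Neither gene was counted in the family sums.

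**Figure D4:**
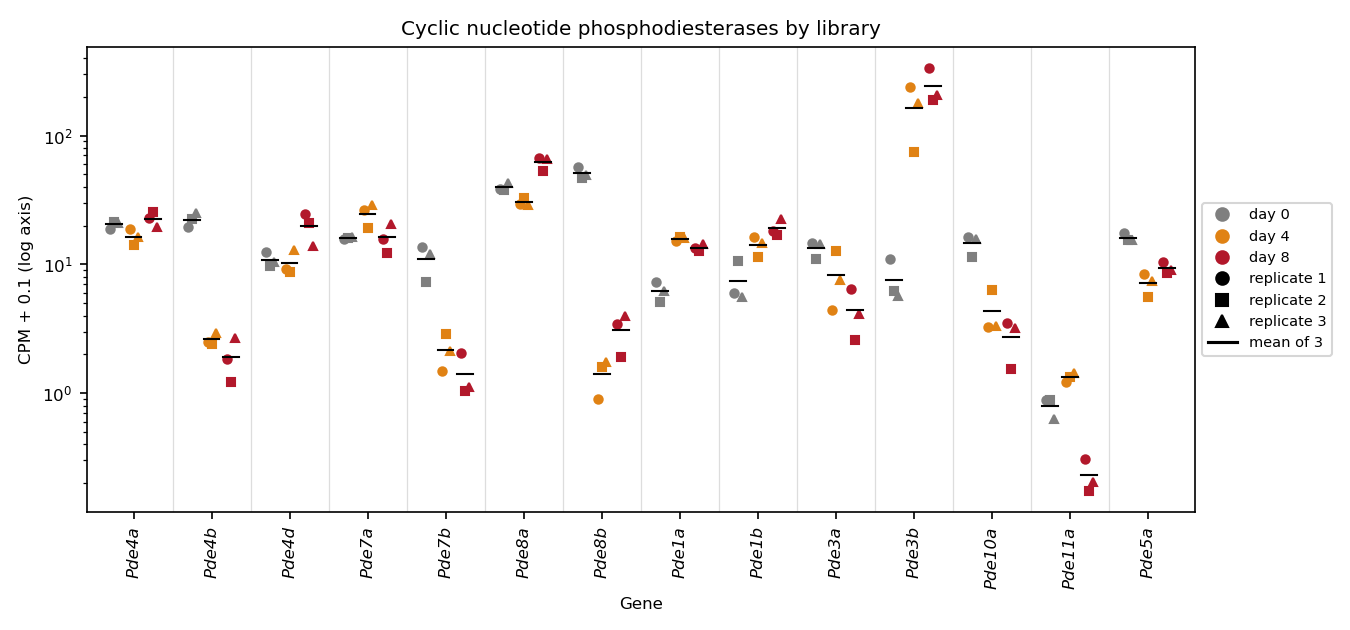
CPM + 0.1 on a log axis for the 14 tested phosphodiesterases of cyclic nucleotides, in each library (symbols: replicates; colours: days; bars: means of 3). Pde3b moves from 5.62 to 10.8 CPM at day 0 up to 334 CPM, while Pde8b, Pde4b and Pde7b move down with no overlap between day 0 and the later days.

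Summed over the 21 phosphodiesterases of cyclic nucleotides, the level was 34.2 ± 1.5 CPM per kb at day 0, 39.4 ± 9.49 at day 4 and 56.6 ± 10.8 at day 8 (SD, n = 3). Day 4 replicates 1 and 3 (47.6 and 41.6) lay above the day 0 libraries (32.6 to 35.5), and replicate 2 (29.0) lay below them. The sum itself was not tested. The share of Pde3b was 3.34%, 2.06% and 1.78% in the day 0 libraries, 54.8%, 28.1% and 46.9% at day 4 and 53.5%, 43.7% and 41.7% at day 8. It was the leading gene in all 6 differentiated libraries (in day 4 replicate 2 by a small margin over Pde8a at 27.7%), and the days differed in the exact permutation test (p = 0.0321, adjusted p = 0.0321). At day 0 the family was led by Pde8a with 28.5% ± 1.87 and Pde8b with 25.3% ± 1.70 (SD, n = 3). Pde8a held 20.0% ± 6.72 at day 4 and 27.3% ± 3.00 at day 8, and Pde8b 0.610% ± 0.300 and 0.900% ± 0.284. No other phosphodiesterase held over 10% of the sum in any library.

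PKA is a complex of regulatory subunits, which bind cAMP and anchor the enzyme, and catalytic subunits, which carry the kinase. Among the regulatory genes Prkar2b rose and Prkar1a and Prkar1b fell. Prkar2b (ENSMUSG00000002997), the type II beta subunit that prevails in adipose tissue, stood at 14.5, 10.9 and 10.3 CPM at day 0, 472, 235 and 473 CPM at day 4 and 642, 361 and 443 CPM at day 8. Day 0 was far from all later libraries, of which day 4 replicate 2 was the lowest. The log2 fold change was 5.04 (SE 0.34, adjusted p = 1.25e-06) at day 4, or 5.31 without replicate 2, and 5.34 (SE 0.35, adjusted p = 1.08e-06) at day 8. Prkar1a (ENSMUSG00000020612), the widely expressed type I alpha subunit, stood at 403, 439 and 434 CPM at day 0, 236, 339 and 271 CPM at day 4 and 222, 203 and 227 CPM at day 8. The 3 days did not overlap, and day 4 replicate 2 was the highest of the later libraries. Prkar1a fell by 0.59 (SE 0.15, adjusted p = 0.00742) at day 4 and by 0.97 (SE 0.15, adjusted p = 0.000301) at day 8. Its change between days 4 and 8 was -0.37 (adjusted p = 0.101, and 0.0393 without day 4 replicate 1).

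Prkar1b (ENSMUSG00000025855), the type I beta subunit best known from neurons, stood at 27.1, 28.8 and 23.9 CPM at day 0, 3.46, 7.18 and 3.43 CPM at day 4 and 10.2, 9.49 and 10.1 CPM at day 8. The 3 days did not overlap, with day 4 lowest. It fell by 2.50 (SE 0.27, adjusted p = 2.96e-05) at day 4 and by 1.43 (SE 0.26, adjusted p = 0.00069) at day 8. Between days 4 and 8 it was 1.07 higher (adjusted p = 0.0173), a call lost without day 4 replicate 3 (0.0639). Prkar2a (ENSMUSG00000032601), the widely expressed type II alpha subunit, stood at 47.1, 29.9 and 39.0 CPM at day 0, 52.2, 44.9 and 52.3 CPM at day 4 and 49.5, 26.1 and 38.1 CPM at day 8. All days overlapped and no comparison passed the test (adjusted p = 0.200 at day 4 and 0.926 at day 8).

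The catalytic genes moved in opposite directions. Prkaca (ENSMUSG00000005469), the main catalytic subunit, stood at 139.8, 147 and 141 CPM at day 0, 479.7, 301 and 481 CPM at day 4 and 430.5, 556 and 503 CPM at day 8. All later libraries lay above day 0, with day 4 replicate 2 the lowest. Its log2 fold change was 1.56 (SE 0.19, adjusted p = 7.67e-05) at day 4, or 1.75 without replicate 2, and 1.80 (SE 0.19, adjusted p = 2.4e-05) at day 8. Prkacb (ENSMUSG00000005034), the second catalytic subunit, stood at 81.6, 76.2 and 80.3 CPM at day 0, 33.0, 36.0 and 31.6 CPM at day 4 and 54.9, 35.2 and 39.7 CPM at day 8. No later library reached the day 0 range. Prkacb fell by 1.24 (SE 0.16, adjusted p = 0.000113) at day 4 and by 0.87 (SE 0.16, adjusted p = 0.000809) at day 8.

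**Figure D5:**
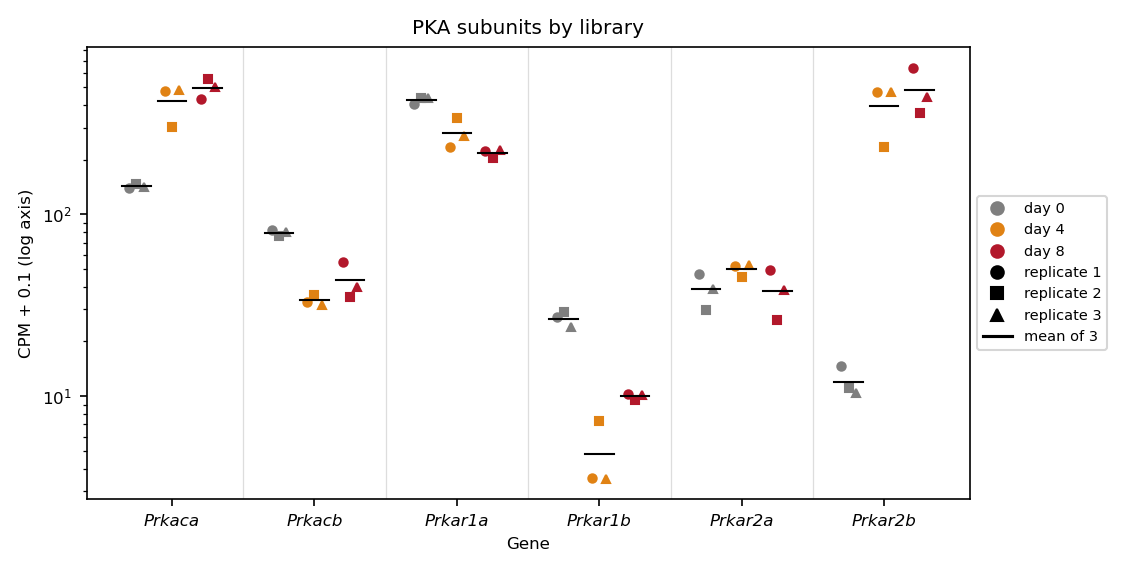
CPM + 0.1 on a log axis for the PKA subunit genes in each library (symbols: replicates; colours: days; bars: means of 3). Prkar2b goes from 10.3 to 14.5 CPM at day 0 to between 235 and 642 CPM, Prkaca rises while Prkacb falls, and the 3 days of Prkar2a overlap.

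Per kb, the summed level of the regulatory genes was 115 ± 2.64 CPM per kb at day 0, 182 ± 26.6 at day 4 and 191 ± 43.2 at day 8 (SD, n = 3). That of the catalytic genes was 66.4 ± 1.17, 173 ± 41.2 and 204.5 ± 24.2. The ratio of regulatory to catalytic RNA was 1.71, 1.73 and 1.75 in the day 0 libraries, 0.981, 1.21 and 1.02 at day 4 and 1.33, 0.670 and 0.883 at day 8. It was higher at day 0 than in every later library, while days 4 and 8 overlapped. Without division by length the ratios were 2.22, 2.28 and 2.29 at day 0, 1.49, 1.85 and 1.56 at day 4 and 1.90, 1.01 and 1.32 at day 8, with day 0 again above every later library. The Prkaca share moved by 27.5 percentage points from day 0 to day 8 without division by length, against 11.1 points with it. Prkar1a made up 83.5%, 87.0% and 86.9% of the regulatory sum at day 0, 28.3%, 51.7% and 31.1% at day 4 and 21.7%, 30.8% and 28.8% at day 8 (exact permutation p = 0.0143, adjusted p = 0.0238). Prkar2b made up 2.85% ± 0.610, 57.9% ± 13.5 and 68.4% ± 4.86 on these days (SD, n = 3), so the leading regulatory gene changed from Prkar1a to Prkar2b in all but day 4 replicate 2. Prkaca made up 85.8%, 87.2% and 86.1% of the catalytic sum at day 0, 98.1%, 96.7% and 98.2% at day 4 and 96.5%, 98.2% and 97.8% at day 8 (exact permutation p = 0.025, adjusted p = 0.0313).

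Promoter windows are shown for the PKA genes on which these shares turn, again from RefSeq on GRCm38.p6, with capitals for the same core on either strand and for the full palindrome. For Prkar1a only 30 bases around its single palindrome are printed (chr11:109650889-109650918, plus strand), before the start site at position 109650949. Another RefSeq start of Prkar1a, at position 109650862, lies before these bases, so they are upstream of one start and downstream of another. The window they come from was not free of annotated exon bases. Prkaca is at chr8:83972728-83972977 (plus strand) and Prkar2b at chr12:32061297-32061527 (minus strand, read 5′ to 3′, without the bases nearest the start site, which are exon in the GENCODE annotation).
Prkar1a: gcgaggcgcatTGACGTCAgcagccgaacg
Prkaca: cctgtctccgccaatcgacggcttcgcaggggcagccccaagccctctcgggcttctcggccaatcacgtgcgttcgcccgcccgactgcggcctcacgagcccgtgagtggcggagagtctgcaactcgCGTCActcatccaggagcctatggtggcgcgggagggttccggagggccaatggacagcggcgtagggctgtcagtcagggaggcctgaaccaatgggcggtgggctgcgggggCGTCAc
Prkar2b: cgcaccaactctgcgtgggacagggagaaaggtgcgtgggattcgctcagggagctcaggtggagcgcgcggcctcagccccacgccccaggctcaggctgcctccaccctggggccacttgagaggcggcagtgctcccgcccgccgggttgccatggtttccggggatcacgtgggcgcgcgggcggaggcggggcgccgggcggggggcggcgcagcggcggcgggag
The Prkar1a stretch held the full palindrome TGACGTCA, found in 508 of all 32851 windows (1.55%) and in 1 of the 73 windows of the 33 genes described here that the table lists. Prkaca held CGTCA 2 times, in a window chosen for most matches as above, and Prkar2b held neither motif. Of the 73 windows 16 held TGACG on either strand, where 17.8% of all 32851 windows did. A gene can have several windows, and no share by gene was taken. The 16 windows belong to 12 genes: Adrb1, Gnas, Adcy7, Adcy9, Pde1a, Pde4a, Pde4b, Pde8a, Prkaca, Prkacb, Prkar1a and Prkar1b. These include genes that rose (Prkaca), that fell (Adcy7) and that passed no comparison (Pde4a).

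The rest of the pathway was read from lists chosen by function, but with earlier results of these data known, so their counts are a description only. Beside their counts stand the shares over all genes tested: 54.6% called at day 4 (28.6% higher, 26.0% lower), 63.4% at day 8 (33.5% and 29.9%) and 22.4% between days 4 and 8 (11.7% and 10.8%). Here too a listed gene that is high on a single day can pass the filter through that day alone. The counts, shares and medians of a list therefore describe its tested genes and not the whole list. Of 36 genes for other Gs-coupled receptors and their accessory proteins, 18 were tested, 9 higher and 5 lower at day 4 (median log2 fold change 0.83) and 10 higher and 4 lower at day 8 (median 1.01), or 77.8% called on each day against 54.6% and 63.4% of all genes. Mc2r, the corticotropin receptor, had no count at day 0 and stood at 37.9 ± 12 CPM at day 4 and 8.49 ± 1.39 at day 8 (SD, n = 3). The melanocortin receptor Mc5r had a similar course, at 0.0432 ± 0.0748, 38.6 ± 9.94 and 7.23 ± 0.683 CPM. Both were called against day 0 and fell between days 4 and 8 (adjusted p = 0.00155 and 0.00108). The thyrotropin receptor Tshr instead rose at each step, from 0.169 ± 0.0647 to 13.4 ± 2.58 and 61.7 ± 15.6 CPM (day 8 against day 4: log2 2.21, SE 0.23, adjusted p = 0.000359). Gipr, the receptor of the incretin GIP, went from 0.0414 ± 0.0501 to 1.43 ± 1.18 and 20.0 ± 5.09 CPM (day 8 against day 0: adjusted p = 3.59e-05). Between days 4 and 8, 4 genes of this list were higher and 5 lower, where 22.4% of all genes were called.

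Gi-coupled receptors lower cAMP. Of 21 listed, 12 were tested, 6 higher and 4 lower at day 4 (median 1.29) and again 6 and 4 at day 8 (median 1.54), or 83.3% called on each day against 54.6% and 63.4% of all genes. The adenosine receptor Adora1 went from 0.00899 ± 0.0156 CPM at day 0 to 72.4 ± 25.9 and 83.5 ± 15.2 CPM (adjusted p = 1.32e-07 and 1.29e-07). Ffar2, a receptor of short-chain fatty acids, and Hcar2, the niacin receptor, had no count at day 0 and stood at 18.1 ± 6.83 and 8.13 ± 2.26 CPM at day 4 and 35.9 ± 7.80 and 17.6 ± 2.09 CPM at day 8. All 3 are antilipolytic receptors of fat cells. Of 26 genes for G protein subunits and their cycle, 24 were tested, 6 higher and 10 lower at day 4 (median -0.37) and 10 higher and 7 lower at day 8 (median -0.02). The shares called were 66.7% and 70.8%, against 54.6% and 63.4% of all genes. Gnai1, an inhibitory alpha subunit, rose from 2.65 ± 0.606 to 60.3 ± 15.4 and 71.8 ± 25 CPM (log2 4.5 and 4.76, SE 0.33 and 0.34, adjusted p = 2.14e-06 and 1.74e-06). Gnao1, the alpha subunit Go, rose from 13.9 ± 2.18 to 81.5 ± 11.3 CPM at day 4 (log2 2.55, adjusted p = 8.47e-07) and stood at 41.1 ± 3.09 CPM at day 8, below day 4 (log2 -0.99, adjusted p = 0.00242). Rgs2, a brake on G proteins, rose from 5.67 ± 2.17 to 45.3 ± 20.6 and 36.8 ± 1.1 CPM (log2 3.00 and 2.70, adjusted p = 6.82e-05 and 9.82e-05).

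Receptor desensitisation was covered by 8 genes, all tested, with 1 higher and 1 lower at day 4 (median -0.13) and 3 higher and 1 lower at day 8 (median 0.35). The shares called, 25% and 50.0%, were below the 54.6% and 63.4% of all genes. Arrb1, beta-arrestin 1, rose from 16.6 ± 1.46 to 91.4 ± 4.46 and 71.3 ± 5.39 CPM (log2 2.46 and 2.10, adjusted p = 2.43e-07 and 6.2e-07). The receptor kinase Grk3 was at 0.251 ± 0.0819, 0.103 ± 0.0581 and 2.39 ± 0.695 CPM (day 8 against day 4: log2 4.47, SE 0.52, adjusted p = 0.00056). The single lower gene at day 4 was Arrdc3, an arrestin-like regulator of beta-adrenergic receptors (adjusted p = 0.0316), a call lost without day 0 replicate 1 (0.0789) or 3 (0.0926). With total-count scaling 5 of the 8 were called at day 4, 1 higher and 4 lower.

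Of 29 genes for PKA inhibitors, anchoring proteins and other cAMP effectors, 18 were tested, 7 higher and 4 lower at day 4 (median 0.15) and 7 higher and 5 lower at day 8 (median 0.38), or 61.1% and 66.7% called against 54.6% and 63.4% of all genes. Popdc3 and Bves, membrane proteins that bind cAMP, went from 0.0404 ± 0.0449 to 3.03 ± 1.56 and 1.95 ± 0.485 CPM and from 0.185 ± 0.0626 to 7.36 ± 4.57 and 4.12 ± 1.17 CPM (day 8 against day 0: adjusted p = 7.26e-05 and 4.75e-05). Rapgef3, which encodes the cAMP-activated exchange factor EPAC1, fell from 6.80 ± 0.614 CPM to 0.920 ± 1.2 and 0.333 ± 0.0458 CPM. Its log2 change at day 4 was -2.85 (adjusted p = 0.00801), and -4.79 without day 4 replicate 2. The pacemaker channel gene Hcn2, whose channel binds cAMP, stood at 4.61 ± 0.319, 9.96 ± 4.04 and 80.3 ± 23.5 CPM (day 8 against day 4: log2 3.01, SE 0.32, adjusted p = 0.000359).

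All 13 genes of the CREB family and its coactivators were tested, 3 higher and 4 lower at day 4 (median -0.33) and 3 higher and 5 lower at day 8 (median -0.05), or 53.8% and 61.5% called, about the 54.6% and 63.4% of all genes. Sik2, a kinase that holds CREB coactivators in the cytoplasm, rose from 8.50 ± 0.158 to 57.1 ± 17.6 and 36.6 ± 7.99 CPM (log2 2.75 and 2.11, adjusted p = 6.6e-06 and 2.82e-05). The coactivator gene Crtc2 rose from 38.5 ± 3.27 to 58.7 ± 4.95 and 88.7 ± 13.6 CPM (log2 0.61 and 1.2, adjusted p = 0.00442 and 4.65e-05). Of 23 genes that cAMP is known to induce in some tissue, 22 were tested, 12 higher and 6 lower at day 4 (median 0.77) and 13 higher and 5 lower at day 8 (median 1.04), or 81.8% called on each day against 54.6% and 63.4% of all genes. Between days 4 and 8, 9 of the 22 were higher and 0 lower, where 11.7% of all genes were higher and 10.8% lower, and 5 were higher without day 4 replicate 3. Ucp1, the uncoupling protein of brown and beige fat, had no count at day 0 and stood at 6.71 ± 4.67 and 156 ± 62.3 CPM. Pck1, the glyceroneogenic enzyme, stood at 0.00986 ± 0.0171, 10.7 ± 4.78 and 62.1 ± 11.3 CPM, and Atf3, a stress-induced factor, at 2.12 ± 1.03, 4.71 ± 1.63 and 39.3 ± 4.95 CPM. Their differences between days 4 and 8 passed the test (adjusted p = 0.00128, 0.000765 and 0.00039). Ucp1, Dio2 and Ppargc1a of this list are also among the beige or brown adipocyte markers, and Sik1, Crem and Rgs2 stand on other lists here too.

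All 8 genes for PKA-regulated lipolysis proteins were higher at both days, with a median log2 fold change of 7.46 at day 4 and 7.44 at day 8, where 28.6% and 33.5% of all genes were higher. Plin1, the droplet coat protein that PKA phosphorylates, stood at 0.0287 ± 0.0296, 1113 ± 238 and 1255 ± 75.5 CPM, and Plin5 at 0.0394 ± 0.0683, 95.5 ± 47.8 and 139 ± 39.2 CPM (SD, n = 3). Abhd5, the coactivator of adipose triglyceride lipase, stood at 49.0 ± 0.969, 663 ± 142 and 314 ± 20.2 CPM and was lower at day 8 than at day 4 (log2 -1.08, SE 0.17, adjusted p = 0.00238). Plin1 and Lipe of this list are also among the adipocyte markers. Of 14 genes of the cGMP arm, 11 were tested, 2 higher and 5 lower at day 4 (median -0.69) and 3 higher and 6 lower at day 8 (median -0.89), or 63.6% and 81.8% called against 54.6% and 63.4% of all genes. Without day 0 replicate 1, 2 were higher and 2 lower at day 4. Npr1, the natriuretic peptide receptor that makes cGMP, stood at 0.340 ± 0.0838, 44.0 ± 16.6 and 6.72 ± 1.90 CPM, up by 6.98 at day 4 (SE 0.41, adjusted p = 5.22e-07) and down by 2.71 from there to day 8 (SE 0.31, adjusted p = 0.000519). Of the 3 listed efflux transporters that export cyclic nucleotides, Abcc5 was higher at day 4, at 82.7 ± 1.41 CPM against 27.1 ± 1.92 at day 0 (log2 1.61, SE 0.12, adjusted p = 2.5e-06), and Abcc4 was not called there (-0.09, adjusted p = 0.78). At day 8 both were called higher, where 33.5% of all genes were, and neither with total-count scaling (adjusted p = 0.0902 for Abcc5 and 0.154 for Abcc4), and Abcc4 not without day 8 replicate 2 (0.0539). With genes that had no count on a day placed at a bound of 3 counts over that group, the medians of these lists did not move.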

How the data were processed

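RNA-seq was analysed in 9 libraries of mouse cells, 3 per day, grouped by the labels. The authors deposited integer read counts for each Ensembl gene in a single table. The submitters' processing notes name HISAT2, featureCounts and the GRCm39 build. Not given in the sources used here are the strand setting, the annotation release and tool versions. Overlapping, antisense and near-identical genes therefore have uncertain counts. No row without a gene name and no column of another sample was present.

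Counts were analysed with edgeR 4.0.16 and limma 3.58.1 in R 4.3.3, with DESeq2 1.42.0 as an alternative and numpy 2.4.6 in Python 3.11.15 for the shares. The filterByExpr function, set to at least 10 counts in enough libraries and 15 in total, kept 14649 genes. A single quasi-likelihood model with TMM scaling took day as its only factor over the 9 libraries (6 residual degrees of freedom), with two-sided F-tests and Benjamini-Hochberg adjustment over all genes tested at a threshold of 0.05. The procedure was tested on simulated counts of 14649 genes. With 67, 67 and 66 genes changed by 1.5, 2 and 4-fold at day 8, it recovered 8.96%, 46.3% and 93.9% of them. Far fewer genes were changed there than were called here, so these shares need not hold here. A gene that passed no comparison may still have changed. No libraries of a day agreed within sampling noise (chi-square between 15.5 and 229 for each degree of freedom), so none was merged. A floor of 3 counts corresponds to 0.0809 to 0.125 CPM in a library. Mitochondrial genes took 1.49 to 1.73% of counts at day 0, 3.17 to 5.65% at day 4 and 4.94 to 8.46% at day 8. Exon lengths came from GENCODE M21, of another build, which served for lengths and overlaps only; all 43 genes had one. Each family's share was tested, with p-values adjusted over 5 families, for the gene of largest mean share, two-sided by construction, over all assignments of libraries to days. RefSeq promoter windows listed 33 of the 43 genes.

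A gene of the 43, which stays in the counts over the list, and the family share that needs it are not reported here. The genes and lists were chosen with earlier results of these data known. Values in every library are given for tested genes called with at least a 2-fold change in any comparison and for Adrb1, Adrb3, Gnas, Pde3b and the PKA subunits, and the others by range; of each pathway list, genes were named from the 3 of largest change among those called in a comparison. Alternatives were other scalings (size factors of DESeq2, total counts), no filter on low counts, DESeq2, a replicate block, leaving out each library and, for the shares, no division by length.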

Additional observations from a re-analysis of the deposited data

How the results depend on the processing

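Of 61 calls in 105 combinations of gene and comparison, 47 held under every alternative and none of the 105 reversed while called. With total counts in place of TMM the median log2 fold change of all genes moved to -0.34 at day 4 and -0.33 at day 8 against day 0, the share of calls that were higher from 52.4% to 35.3% and from 52.9% to 37.5%, and the genes described here were called 9 higher and 16 lower at day 4 and 10 higher and 16 lower at day 8; small positive changes (Adcy6, Pde4d, Pde6d and Pde8a at day 8, Pde7a and Pde1b at day 4) lost their calls there. Leaving out single libraries gave 21 to 26 called genes at day 4, 28 to 31 at day 8 and 5 to 13 between days 4 and 8, where all genes gave 1894, 2107 and 2012 without day 4 replicate 3, day 8 replicate 1 and day 8 replicate 2 against 3285; the cause was not tested. Deviations from the day means of same-numbered libraries had correlations from -0.126 to 0.273 (2 of 9 over 0.1). Those of differently numbered libraries had correlations from -0.224 to 0.188 (2 of 18 over 0.1). Such weak values cannot tell whether the numbers mark shared cultures or batches. A replicate block gave 25, 29 and 9 called genes, gaining Prkar2a at day 4 (adjusted p = 0.0494), Adcy4 at day 8 (0.046) and Pde7a between days 4 and 8 (0.0346) and losing Adcy6 between days 4 and 8 (0.0515); for the shares it allows only arrangements within numbers, so that p cannot fall below 0.0278, and the shifts of 3.66 (Adcy6), 43.9 (Pde3b), -58.7 (Prkar1a) and 11.1 points (Prkaca) had adjusted p of 0.0694, 0.111, 0.0694 and 0.104. Without division by length these shifts were 2.26, 54.1, -54.8 and 27.5 points, and all 4 still passed (adjusted p from 0.0238 to 0.0286). Low counts limit Adrb1, Adcy10 and, at day 8, Pde11a.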
